A study of Mus musculus with 24 samples.

Results

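Rgs16, Usp2, Tspan4, Spon2, Dnmt3b and A630005I04Rik are 6 genes of the mouse liver with a strong daily rhythm, followed here through every probe that carries their name on the array. They are 6 of 18955 genes tested and are covered by 8 of 41174 probes, with 2 probes each for Usp2 and Spon2. They were selected on the size and time of their rhythm in both genotypes as measured on these same arrays, so the 24 h rhythm over both ages, its amplitude and its peak time are described here without a test. All 8 probes passed the filter on dim signals, none was saturated on any array, and 7 of them were well above background in Cy5 on all 24 arrays, with the dimmer Usp2 probe above it on 22.

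Liver RNA of C57Bl/6J mice was measured on 24 2-colour Agilent arrays. In 12 arrays the mice were Mop3fxfx, homozygous for a floxed Mop3 gene and without Cre (floxed livers), and in 12 they were Mop3fxfxCreAlb, which carry the same floxed gene and Cre recombinase under the albumin promoter (Cre livers). Mice of both genotypes were fed freely under 12 h of light and 12 h of dark and were collected every 4 h from ZT0, the time of lights on, at 10 and at 20 weeks of age. Each genotype, age and time had 1 array of RNA pooled from at least 3 mice, read beside a reference pool from 10-week mice of both genotypes. No group carried Cre without the floxed gene. Albumin-Cre acts in hepatocytes, and which other liver cells keep Mop3 was not measured. No single mouse was measured, so p-values measure the spread between arrays around the fitted cycle, and their number sets the precision.

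Mop3 is a former name of Arntl, the gene of the clock protein BMAL1. With CLOCK this protein binds E-box sequences and drives genes such as Dbp, Nr1d1 and the Per genes, whose products feed back on it. NR1D1 and NR1D2 in turn repress genes with ROR elements in the opposite phase, Arntl among them, so that liver output genes peak at different times of day. Besides the clock, feeding, temperature and hormones impose daily rhythms on hepatocytes.

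Both Usp2 and Spon2 were read by a pair of probes, and the first 30 of the 60 bases of 7 of the 8 probes are shown because every value of these genes rests on hybridisation to them; that of A630005I04Rik is named only. The probes of Usp2 are listed under different transcripts of the gene and those of Spon2 under the same transcript. All letters are in lower case since no part of them is singled out, and they are written 5′ to 3′ as the deposited scanner files give them.
Rgs16: gagagaactcttttaagtataatattgtgt
Usp2 brighter probe: agctcacaacatttgtgaatttcccactaa
Usp2 dimmer probe: cagcagtaaaagagggaagtgggtaaatgg
Tspan4: caggtcccatgatccacattccatgacagt
Spon2 dimmer probe: cgagcttgaagaagaggccgagtgtgcccc
Spon2 brighter probe: ccacaggaggaacaaacgaagaggggcagt
Dnmt3b: gaaaaccttctggagatgttaaaagctttt

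Per the labels, Cy3 marks the liver sample and Cy5 the reference pool, yet on these arrays Cy5 was the channel that varied. On the 6 slides that held several arrays, the share of probes with the wider spread in Cy5 was 72.4 to 98%. The members show it plainly on the slide that held 4 floxed arrays of 20 weeks, taken from ZT0 to ZT12. Over these arrays the Rgs16 signal ran from 746 to 15099 intensity units in Cy5, which is 20.2-fold, and from 485.5 to 547 in Cy3, which is 1.13-fold. For Usp2 the range was 19.4-fold in Cy5 and 1.13-fold in Cy3, and for Spon2 it was 7.01-fold and 1.10-fold. For this reason Cy5 was treated as the sample and Cy3 as the reference, which is the reverse of what the labels say. If the labels are right, all signs turn, higher becomes lower and peaks move by 12 h, while amplitudes, p-values and total counts stay. A share of higher genes then becomes the share of lower ones, and a place on a cycle is counted from the other end. All values below are log2 ratios, and fitted values carry the standard error of the fit.

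Before the members, the arrays were set against their labels. Cy5 was well above background for 56.7 to 70.3% of probes. The Arntl log2 ratio swung from -2.18 to 1.60 in floxed livers and stayed between -0.90 and 0.52 in Cre livers. The files do not place its probe inside or outside the deleted exon, so it is no measure of the deletion. For each array, genes that differed between genotypes by at least 1 in a fit without that array were placed on the way from the fitted floxed to the fitted Cre level of its time and age, in percent of the whole way, a check added after the data were seen. The median over 94 to 150 such genes was -7.79 to 21.6% in floxed arrays and 90.1 to 129% in 10 Cre arrays. It was 65.4% in the 20-week Cre array of ZT8 and 55.4% in the 10-week Cre array of ZT16, which also lay alone on its slide. Cfd, a complement protease made by fat, was at 0.63 on the first of these, between -2.74 and -0.81 on the 11 other Cre arrays and between 0.11 and 3.97 on floxed arrays. The mean differences are given with and without these 2 arrays, and so are the Cre amplitudes. Of 10 hepatocyte markers 8 were on the array, and all 8 were above background on all 24 arrays, with 6 of them saturated on 12 or more. The mean of the 5 pancreas markers was 3.28 on the 20-week Cre array of ZT4 and at most 0.67 on the others. Usp2 was at -1.48 on that array and Rgs16 at -1.42.

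**Figure D1:**
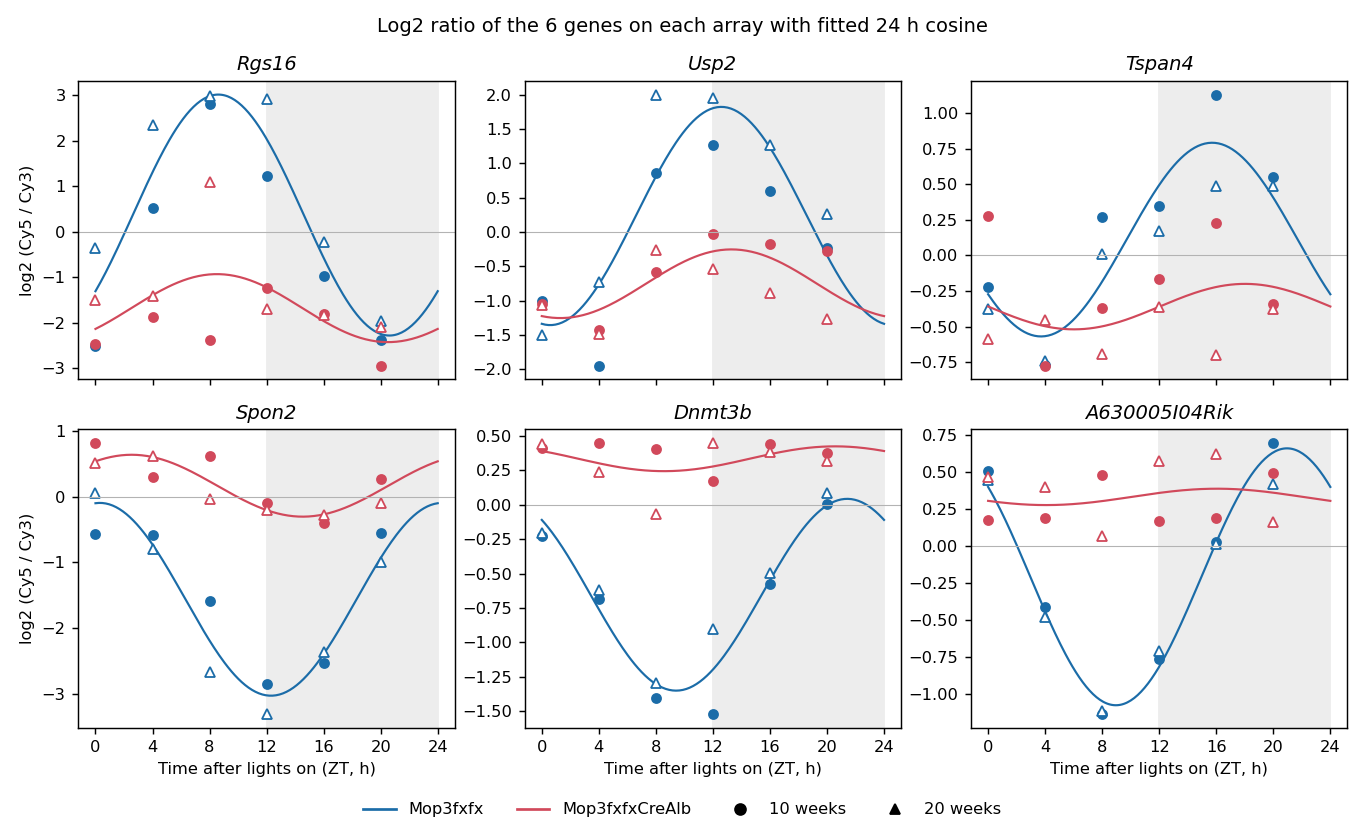
Log2 ratio (Cy5 over Cy3) of the 6 genes on each of the 24 arrays against the time after lights on, with filled circles for 10 weeks, open triangles for 20 weeks, and the fitted 24 h cosine of floxed (blue) and Cre livers (red); the grey area is the dark phase. Rgs16, Usp2 and Tspan4 peak between ZT 8.61 and 15.7 in floxed livers and lie low in Cre livers, while Spon2, Dnmt3b and A630005I04Rik peak between ZT 21.0 and 0.31 and lie high in Cre livers.

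The members formed 2 sets by the time of their peak in floxed livers. Rgs16 peaked in the later part of the light phase at ZT 8.61 ± 0.36 h, Usp2 near lights off at ZT 12.6 ± 0.51 h and Tspan4 early in the night at ZT 15.7 ± 0.61 h. A630005I04Rik peaked at ZT 21.0 ± 0.30 h, Dnmt3b at ZT 21.4 ± 0.37 h and Spon2 at ZT 0.31 ± 0.29 h. Only Rgs16 thus peaked in full daylight and only Spon2 at dawn itself, while Tspan4, Dnmt3b and A630005I04Rik peaked in the dark. In Cre livers the mean level of the first 3 genes was lower and that of the last 3 higher. The fitted Cre amplitudes were 6.37 to 32.1% of the floxed ones (2.53 to 32.6% without the 20-week Cre array of ZT8). Those of Dnmt3b, 0.090 ± 0.068, and A630005I04Rik, 0.055 ± 0.069, were below the Cre median of all genes, 0.105. Whether a small rhythm remained in them was not tested.

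Rgs16 encodes a regulator of G protein signalling, which speeds GTP hydrolysis by G alpha subunits and so ends the signal of their receptors. In floxed livers of 10 weeks its log2 ratio was -2.51 at ZT0, 0.53 at ZT4, 2.82 at ZT8, 1.22 at ZT12, -0.97 at ZT16 and -2.38 at ZT20. At 20 weeks the floxed values were -0.36 at ZT0, 2.36 at ZT4, 2.98 at ZT8, 2.92 at ZT12, -0.22 at ZT16 and -1.97 at ZT20. The gene climbed from ZT0 to ZT8 at both ages, and the value at ZT12 was still near the maximum at 20 weeks but not at 10. Cre livers of 10 weeks gave -2.46 at ZT0, -1.87 at ZT4, -2.38 at ZT8, -1.24 at ZT12, -1.80 at ZT16 and -2.94 at ZT20. Those of 20 weeks gave -1.51 at ZT0, -1.42 at ZT4, 1.11 at ZT8, -1.69 at ZT12, -1.83 at ZT16 and -2.09 at ZT20. The Cre value was at or below -1.24 on 11 of 12 arrays, and the exception was the 20-week array of ZT8, 1 of the 2 that lay between the genotypes. The genotypes overlapped around ZT0 and ZT20, the floxed trough.

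The fitted amplitude of Rgs16, from mean to peak, was 2.65 ± 0.25 in floxed livers, which is 39.4-fold from trough to peak and ranks 1 among 18955 genes, whose median was 0.109. In Cre livers it was 0.75 ± 0.25, or 2.82-fold and 28.2% of the floxed amplitude, with a peak at ZT 8.5 ± 1.3. This remnant ranked 24 among all genes in Cre livers, whose median was 0.105. Without the 20-week Cre array of ZT8 it was 0.39 ± 0.21, or 14.9% of the floxed amplitude, and without both arrays that lay between the genotypes it was 0.46 ± 0.21. Fitted by age, the Cre amplitude was 0.53 ± 0.26 at 10 weeks and 1.12 ± 0.39 at 20 weeks, the second with the ZT8 array in it.

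Usp2 encodes a protease that removes ubiquitin from its targets. The brighter probe in floxed livers of 10 weeks read -1.01 at ZT0, -1.94 at ZT4, 0.86 at ZT8, 1.27 at ZT12, 0.59 at ZT16 and -0.23 at ZT20. In 20-week floxed livers it read -1.503 at ZT0, -0.72 at ZT4, 2.001 at ZT8, 1.96 at ZT12, 1.26 at ZT16 and 0.27 at ZT20. The rise fell between ZT4 and ZT8 at both ages, and the gene stayed high until ZT16. Cre livers read -1.04 at ZT0, -1.43 at ZT4, -0.59 at ZT8, -0.022 at ZT12, -0.17 at ZT16 and -0.27 at ZT20 at 10 weeks. At 20 weeks they read -1.06 at ZT0, -1.48 at ZT4, -0.26 at ZT8, -0.53 at ZT12, -0.89 at ZT16 and -1.27 at ZT20. No Cre value was above 0, and the Cre value was the higher one only at ZT4 of 10 weeks and at ZT0 of 20 weeks. The amplitude of Usp2 was 1.59 ± 0.21 in floxed and 0.50 ± 0.21 in Cre livers, 31.5% of the floxed amplitude, with a Cre peak at ZT 13.3 ± 1.6. Without both arrays that lay between the genotypes the Cre amplitude was 0.44 ± 0.23. Its rank among all genes was 7 in floxed and 134 in Cre livers.

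The dimmer Usp2 probe ran from -0.83 to 1.48 in floxed livers, with a median of 0.42, and from -0.50 to 0.20 in Cre livers, with a median of -0.25. Its amplitude was 0.998 ± 0.12 in floxed and 0.19 ± 0.12 in Cre livers, with floxed peaks of the probes at ZT 12.3 and 12.6. The fall in amplitude was thus seen on both Usp2 probes, with a smaller remnant, 19.0%, on the dimmer one.

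Tspan4 is a member of the tetraspanins, membrane proteins that gather other proteins into microdomains. Floxed livers of 10 weeks had -0.23 at ZT0, -0.77 at ZT4, 0.27 at ZT8, 0.35 at ZT12, 1.13 at ZT16 and 0.55 at ZT20. Floxed livers of 20 weeks had -0.38 at ZT0, -0.74 at ZT4, 0.0080 at ZT8, 0.17 at ZT12, 0.49 at ZT16 and 0.49 at ZT20. Both series were lowest at ZT4 and positive from ZT8 to ZT20. In Cre livers the 10-week values were 0.28 at ZT0, -0.78 at ZT4, -0.37 at ZT8, -0.16 at ZT12, 0.23 at ZT16 and -0.34 at ZT20. The 20-week values were -0.59 at ZT0, -0.45 at ZT4, -0.69 at ZT8, -0.36 at ZT12, -0.70 at ZT16 and -0.38 at ZT20. All 6 Cre values of 20 weeks were negative, while the 10-week series crossed 0, and the groups overlapped over much of their range. The amplitude of Tspan4 was 0.68 ± 0.11 in floxed livers, rank 122, and 0.16 ± 0.11 in Cre livers, rank 5449. Its Cre amplitude was 0.10 ± 0.11 without the 10-week array of ZT16 and 0.085 ± 0.13 without both.

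Spon2 encodes a secreted protein of the extracellular matrix, also called mindin. Its brighter probe in floxed livers of 10 weeks gave -0.56 at ZT0, -0.58 at ZT4, -1.58 at ZT8, -2.85 at ZT12, -2.52 at ZT16 and -0.56 at ZT20. For 20 weeks the floxed values were 0.049 at ZT0, -0.79 at ZT4, -2.66 at ZT8, -3.30 at ZT12, -2.36 at ZT16 and -0.99 at ZT20. The trough around ZT12 was deep, and only the 20-week value of ZT0 rose above the reference. Cre livers of 10 weeks gave 0.81 at ZT0, 0.29 at ZT4, 0.62 at ZT8, -0.10 at ZT12, -0.41 at ZT16 and 0.26 at ZT20. At 20 weeks the Cre values were 0.51 at ZT0, 0.61 at ZT4, -0.033 at ZT8, -0.21 at ZT12, -0.28 at ZT16 and -0.092 at ZT20. The Cre value was the higher one at every time and age, and only the 20-week floxed value of ZT0 reached into the Cre range. The amplitude of Spon2 was 1.46 ± 0.11 in floxed and 0.47 ± 0.11 in Cre livers, 32.1% of the floxed amplitude. The Cre peak lay at ZT 2.5 ± 0.9. The rank of the amplitude was 11 in floxed and 177 in Cre livers, and the Cre amplitude was 0.43 ± 0.12 without both arrays that lay between the genotypes.

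The dimmer Spon2 probe ran from -2.49 to 0.070 in floxed livers, with a median of -1.05, and from -0.35 to 1.27 in Cre livers, with a median of 0.20. Its floxed amplitude was 0.99 ± 0.15 and its Cre amplitude 0.22 ± 0.15. The probes differed in the shape of the Cre series. At ZT8 the dimmer one was at 1.27 at 10 weeks, its Cre maximum, while the brighter one was highest at ZT0 of that age, so the remnant of the Spon2 rhythm in Cre livers depended on the probe in size and time.

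**Figure D2:**
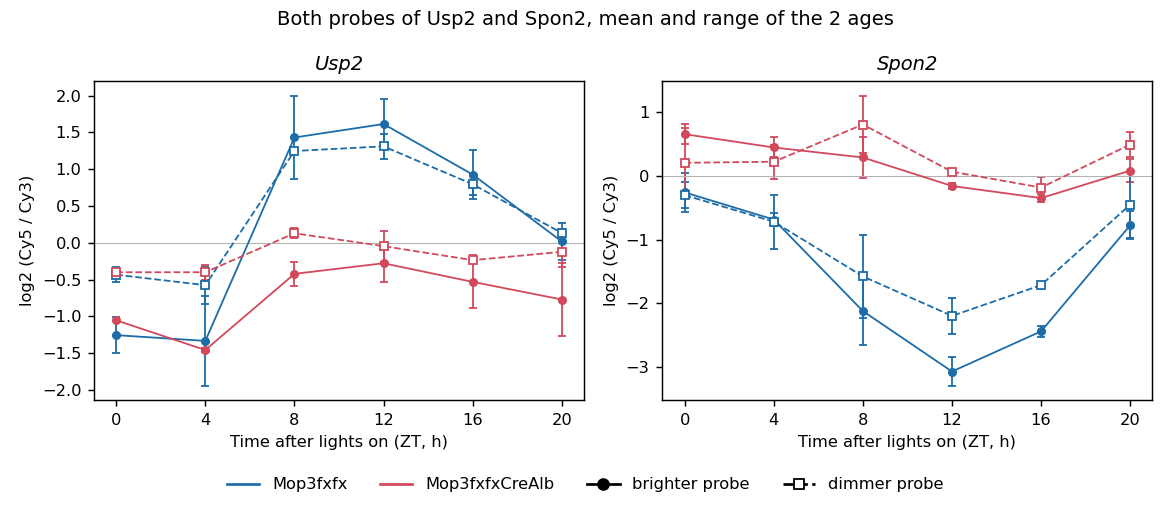
Log2 ratio of the brighter (filled circles, solid lines) and dimmer (open squares, dashed lines) probes of Usp2 and Spon2 against the time after lights on, as the mean of the 10- and 20-week arrays with bars from the lower to the higher of the 2 values. Both probes of a gene follow the same course in floxed livers (blue), with a smaller amplitude on the dimmer one, and in Cre livers (red) the Usp2 probes stay low and the Spon2 probes high.

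Dnmt3b is a de novo DNA methyltransferase. Its floxed values at 10 weeks were -0.23 at ZT0, -0.69 at ZT4, -1.40 at ZT8, -1.52 at ZT12, -0.57 at ZT16 and 0.0030 at ZT20. The floxed values at 20 weeks were -0.21 at ZT0, -0.62 at ZT4, -1.29 at ZT8, -0.90 at ZT12, -0.50 at ZT16 and 0.085 at ZT20. Dnmt3b was lowest at ZT8 and ZT12 and reached the level of the reference only at ZT20. Cre livers of 10 weeks held 0.42 at ZT0, 0.45 at ZT4, 0.41 at ZT8, 0.18 at ZT12, 0.44 at ZT16 and 0.37 at ZT20. Cre livers of 20 weeks held 0.44 at ZT0, 0.24 at ZT4, -0.065 at ZT8, 0.45 at ZT12, 0.39 at ZT16 and 0.32 at ZT20. On 11 of 12 Cre arrays the value was above the whole floxed range, and the exception was again the 20-week array of ZT8. The amplitude was 0.70 ± 0.068 in floxed livers, rank 114, and 0.090 ± 0.068 in Cre livers, rank 10784. Without the ZT8 array it was 0.018 ± 0.062, or 2.53% of the floxed amplitude against 12.9% with it, and without both it was 0.036 ± 0.065.

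A630005I04Rik is a transcript of the RIKEN cDNA collection that the gene table used here does not list. In floxed livers it was at 0.51 at ZT0, -0.41 at ZT4, -1.13 at ZT8, -0.76 at ZT12, 0.032 at ZT16 and 0.70 at ZT20 at 10 weeks. The 20-week floxed series was 0.45 at ZT0, -0.48 at ZT4, -1.11 at ZT8, -0.70 at ZT12, 0.018 at ZT16 and 0.42 at ZT20. The ages gave nearly the same floxed curve. Cre values at 10 weeks were 0.17 at ZT0, 0.19 at ZT4, 0.48 at ZT8, 0.17 at ZT12, 0.19 at ZT16 and 0.49 at ZT20. Those at 20 weeks were 0.47 at ZT0, 0.40 at ZT4, 0.070 at ZT8, 0.58 at ZT12, 0.63 at ZT16 and 0.17 at ZT20. All Cre values were above 0, inside the upper part of the floxed range. The amplitude was 0.87 ± 0.069 in floxed livers, rank 57, and 0.055 ± 0.069 in Cre livers, rank 14356, or 6.37% of the floxed amplitude. Without the 10-week Cre array of ZT16 the remnant was 0.10 ± 0.075, or 11.6%, and without both arrays 0.084 ± 0.068, or 9.65%. Dnmt3b and A630005I04Rik followed each other in floxed livers with a Pearson correlation of 0.94 over 12 arrays, and in Cre livers with 0.48. Both genes had their lowest Cre value on the 20-week array of ZT8, and the Cre correlation is not given without that array.

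**Figure D3:**
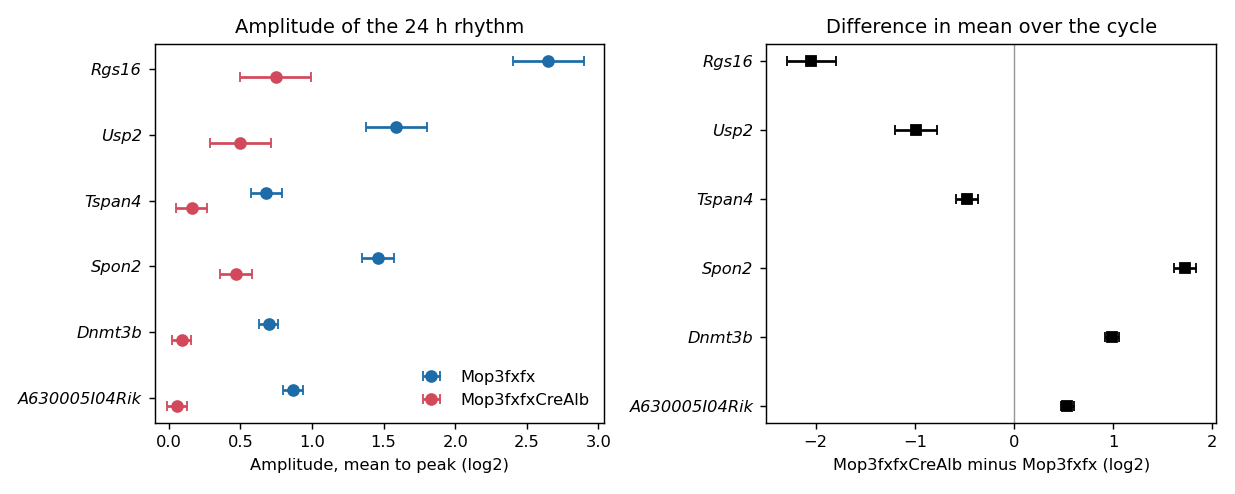
Left, fitted amplitude of the 24 h rhythm (mean to peak, log2) of each gene in floxed (blue) and Cre livers (red), with bars of 1 SE; right, difference of the mean over the cycle, Cre minus floxed (log2), with bars of 1 SE, from 12 arrays per genotype. Amplitudes fall from between 0.68 and 2.65 to between 0.055 and 0.75, and the mean falls for Rgs16, Usp2 and Tspan4 and rises for Spon2, Dnmt3b and A630005I04Rik.

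The level of the members averaged over the cycle was compared between genotypes, a contrast separate from the rhythm on which they were selected. The selection was made with earlier results of these data known, so the share of members called is no independent result. Rgs16, Usp2 and Tspan4 were lower in Cre livers and Spon2, Dnmt3b and A630005I04Rik higher, so all 6 passed the test. Over all genes, 24% passed it, with 12.1% lower and 11.9% higher in Cre livers (limma, Benjamini-Hochberg adjusted p under 0.05 over 18955 genes). With arrays centred on their median and no loess, the higher genes made up 28.4% of those called, against 49.7% here. Bulk RNA cannot tell fewer cells of a type from less RNA per cell.

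Rgs16 fell by 2.05 ± 0.25 (limma adjusted p = 9.1e-06) and was lower in Cre livers in 11 of 12 pairs of arrays of the same age and time. Usp2 fell by 0.99 ± 0.21 (limma adjusted p = 0.0024), lower in 10 of 12 pairs, and by 0.59 ± 0.12 on its dimmer probe (adjusted p = 0.0011). Tspan4 fell by 0.47 ± 0.11 (limma adjusted p = 0.0041), also lower in 10 of 12 pairs. The gap of Rgs16 was the widest of these 3. Spon2 rose by 1.72 ± 0.11 (limma adjusted p = 2.0e-09) and was higher in 12 of 12 pairs on either probe, with a rise of 1.43 ± 0.15 on the dimmer one. Dnmt3b rose by 0.99 ± 0.068 (limma adjusted p = 4.2e-09), higher in 12 of 12 pairs. A630005I04Rik rose by 0.54 ± 0.069 (limma adjusted p = 1.6e-05), higher in 9 of 12 pairs.

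Set on the floxed cycle of each gene, in percent of the way from the fitted trough to the fitted peak, the Cre mean of Rgs16 stood at 11.4%, that of Tspan4 at 15.4% and that of Usp2 at 19.0%. The Cre mean of A630005I04Rik stood at 81.1%, that of Spon2 at 108.9% and that of Dnmt3b at 120.9%. The flattened level was thus near the floxed trough for the first 3 genes and near or above the floxed peak for the others.

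The difference between genotypes was not spread evenly over the day. Averaged over the ages, Rgs16 differed by -3.54 at ZT8 and at ZT12, against -0.34 at ZT20. The ZT8 value averages -5.20 at 10 weeks and -1.88 at 20 weeks, the second from the Cre array that lay between the genotypes. Usp2 differed most at ZT12, by -1.89, and Tspan4 at ZT16, by -1.05. Each of these is a time near the floxed peak of the gene. Spon2 differed by 2.92 at ZT12 and by 0.86 at ZT20, Dnmt3b by 1.52 at ZT12 and by 0.30 at ZT20. A630005I04Rik differed by 1.40 at ZT8 and by -0.23 at ZT20, where it was lower in Cre livers at both ages. For these 3 genes the gap was widest near the floxed trough. The members were selected on a wide floxed rhythm and on what was left of it in Cre livers. That the gap varied over the day thus follows largely from the choice and is no separate result.

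**Figure D4:**
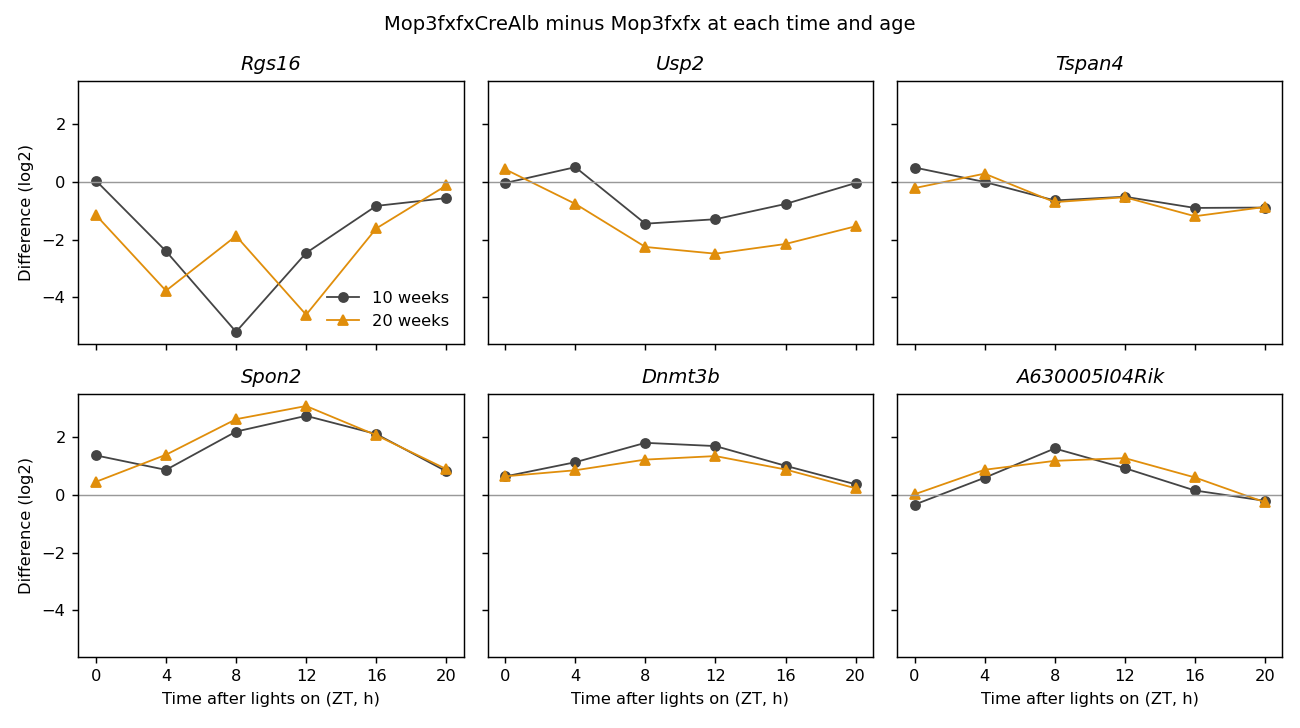
Log2 difference Cre minus floxed at each time after lights on, for arrays of 10 weeks (dark circles) and 20 weeks (orange triangles), with 1 array per genotype at each point. Rgs16 lies lowest, at -5.20 at ZT8 of 10 weeks and -4.61 at ZT12 of 20 weeks, while every point of Spon2 and Dnmt3b is above 0 and both are widest at ZT8 to ZT12.

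Slides held the genotypes in part only. At 10 weeks, time-matched arrays of both genotypes shared a slide for ZT8 and ZT20, for ZT4 and ZT12, and for ZT0. Within these slides Rgs16 differed by -2.88, -2.43 and 0.047, Usp2 by -0.74, -0.39 and -0.037, and Tspan4 by -0.77, -0.26 and 0.50. Spon2 differed by 1.51, 1.81 and 1.37, Dnmt3b by 1.09, 1.42 and 0.64, and A630005I04Rik by 0.71, 0.76 and -0.34. Spon2 and Dnmt3b thus kept their direction within each slide. The sign of Rgs16, Tspan4 and A630005I04Rik turned on the slide whose only time-matched pair was that of ZT0. At 20 weeks 1 slide held both genotypes, but at other times, and Spon2 differed there by 2.23 and Rgs16 by -0.37. With the slide as a random block the 6 mean differences lay between -2.03 and 1.71 and all passed the test, as they did with the 12 pairs of arrays of the same age and time as a block.

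With the 10-week arrays alone, Usp2 fell by 0.51 ± 0.25 (limma adjusted p = 0.36) and Tspan4 by 0.41 ± 0.18 (limma adjusted p = 0.31), so both lost the call. The other 4 genes passed at each age, and at 20 weeks alone all 6 did. Without both arrays that lay between the genotypes the differences were -2.29 ± 0.19 for Rgs16, -1.05 ± 0.23 for Usp2 and -0.50 ± 0.11 for Tspan4. They were 1.77 ± 0.12 for Spon2, 1.02 ± 0.062 for Dnmt3b and 0.59 ± 0.067 for A630005I04Rik, and all 6 passed.

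Age was compared over both genotypes. Rgs16 was higher at 20 than at 10 weeks by 1.02 ± 0.25 (limma adjusted p = 0.0043), the 1 member of 6 that passed, against 31.4% of all genes. The Rgs16 mean went from -0.21 to 0.95 in floxed and from -2.12 to -1.24 in Cre livers. Tspan4 differed by -0.27 ± 0.11 (limma adjusted p = 0.060), Spon2 by -0.20 ± 0.11 and Usp2 by 0.15 ± 0.21, while Dnmt3b and A630005I04Rik differed by less than their SE. No slide held both ages, so age and slide cannot be told apart. With the slide as a random block the Rgs16 difference was 0.98 (adjusted p = 0.093) and with the scan date 0.98 (adjusted p = 0.22), so the call ended. Without the 20-week Cre array of ZT8 it was 0.84 ± 0.19 (adjusted p = 0.0036).

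The age difference of Tspan4 passed the test when any of 5 arrays was left out, with adjusted p from 0.027 to 0.045. They were the 10-week arrays of ZT4 and ZT12 in floxed livers, those of ZT4 and ZT20 in Cre livers, and the 20-week floxed array of ZT8. That of Spon2 was -0.26 (limma adjusted p = 0.049) without the 10-week floxed array of ZT0, and -0.55 on its dimmer probe (adjusted p = 0.0079).

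Whether the genotype difference itself changed with age was tested as an interaction, which 0 of 6 members passed, against 10.7% of all genes. The widest was that of Usp2, at -0.95 ± 0.38 (limma adjusted p = 0.11, unadjusted p = 0.021). Its mean rose from -0.076 to 0.54 between the ages in floxed livers and went from -0.59 to -0.92 in Cre livers. Dnmt3b had an interaction of -0.25 ± 0.13 (adjusted p = 0.21), and those of Rgs16, Tspan4 and Spon2 were smaller than their SE. The Usp2 interaction passed with the pairs of arrays of the same age and time as a block, at -0.95 (limma adjusted p = 0.025), and with array weights, at -1.08 (adjusted p = 0.031). With median centring and no loess it was -1.84 (adjusted p = 0.013), and those of Tspan4 at -1.10 and Dnmt3b at -0.71 passed as well.

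The rhythm of floxed livers was compared between the ages in a fit with separate cycles. None of the 6 members passed (limma), and 0% of all genes did, with 1124 genes at an unadjusted p under 0.05 and no member among them. The floxed amplitude of Rgs16 was 2.68 ± 0.26 at 10 weeks and 2.63 ± 0.39 at 20 weeks, with peaks at ZT 8.9 and 8.3. For Usp2 it was 1.43 ± 0.25 and 1.77 ± 0.24, with peaks at ZT 13.1 and 12.2. The Spon2 amplitude was 1.28 ± 0.19 and 1.66 ± 0.089. Dnmt3b had 0.78 ± 0.075 and 0.62 ± 0.095, A630005I04Rik 0.93 ± 0.085 and 0.81 ± 0.11, and Tspan4 0.78 ± 0.18 and 0.58 ± 0.12. The floxed peaks of the ages were less than 1 h apart for each gene.

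A second component with a period of 12 h would make a cycle steeper on 1 side. In floxed livers 0 of 6 members passed that test (limma), against 0.00528% of all genes, with 836 genes at an unadjusted p under 0.05. Usp2 was 1 of these, with a 12 h amplitude of 0.54 against 1.59 for 24 h (unadjusted p = 0.034). Its floxed ratio changed by more between ZT4 and ZT8 than between any other neighbouring times at both ages.

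The genes most like each member were taken as the 5 with the highest Pearson correlation of the log2 ratio over the 24 arrays, which share a reference and include both genotypes. For Rgs16 these were Pgap1 (0.91), the clock repressor Nr1d2 (0.91), Tox (0.87), the clock output Dbp (0.87) and Pank1 (0.86), with floxed peaks between ZT 9.2 and 9.7. Within the 12 Cre arrays the correlation of Rgs16 was 0.81 with Nr1d2 and 0.64 with Dbp. Nr1d2 had a Cre amplitude of 1.11 against 1.71 in floxed livers, and Dbp 0.81 against 2.18. These correlations and amplitudes include the 20-week Cre array of ZT8, which lay between the genotypes, and are not given without it. Rgs16 was at 1.11 on that array and at most at -1.24 on the other Cre arrays. Usp2 was most like Nmrk1 (0.91), Upp2 (0.91), the transcription factor Tef (0.91), the cell cycle kinase Wee1 (0.89) and Mknk2 (0.87), with floxed peaks between ZT 11.5 and 11.9. Tspan4 had the weakest of these likenesses, with Eif4ebp3 (0.86), Fhad1 (0.84), Mrps21 (0.81), Agtpbp1 (0.80) and Lpgat1 (0.80), peaking between ZT 15.5 and 17.3.

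Spon2 was most like Smagp (0.95), Mad2l2 (0.95), Pla2g12b (0.92), the fatty acid elongase Elovl3 (0.91) and Smo (0.91), the transducer of hedgehog signals. Dnmt3b was most like Lgalsl (0.96), Asap2 (0.93), the transcription factor Sox9 (0.92), Elovl3 (0.91) and Mad2l2 (0.90). Elovl3 and Mad2l2 stood in both lists. A630005I04Rik was most like the cell cycle inhibitor Cdkn1a (0.91), Lgalsl (0.89), Blcap (0.88), Dnmt3b (0.88) and the choline kinase Chka (0.87). The 12 different genes named for these 3 members, Dnmt3b included, all had a positive fitted difference of the mean, from 0.32 for Blcap to 1.80 for Elovl3. They were picked over arrays of both genotypes, so this shared sign follows largely from the choice and is no separate result. Over the 12 Cre arrays alone the correlation of each of these pairs was lower, for example -0.076 between Spon2 and Elovl3 and 0.27 between Dnmt3b and Lgalsl. A fall from the correlation that picked the genes is likewise partly built in.

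Promoters were taken from RefSeq, from 250 bases before to 50 after a start site, and matched 4 of the 6 members, Tspan4 with 2 start sites. CLOCK and ARNTL bind the E-box CACGTG, searched on both strands. It was found in 1 of these 5 windows, at the second start site of Tspan4, 51 bases before the start, and in 7.15% of 32851 promoters of the same length. The stretch is shown because Tspan4 is the member with this motif, with the E-box in capitals, on the plus strand of chr7:141476299-141476364 of GRCm38.p6.
Tspan4 second start site: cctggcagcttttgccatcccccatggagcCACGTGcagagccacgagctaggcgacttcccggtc
The windows of Rgs16, Usp2 and Dnmt3b hold no CACGTG. The D-box TTATGTAA or TTACGTAA, bound by DBP and TEF and found in 1.06% of promoters, and the ROR element TAGGTCA or TGGGTCA, found in 6.45%, were in none of the 5 windows. A missing match says only that these letters are not in the window.

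Other genes of the clock were counted in lists chosen with earlier results of these data known, beside 24% of all genes called and a median difference of -0.0048. Of 14 E-box clock targets, 7 were lower in Cre livers and 0 higher, with a median difference of -0.29, negative under all 3 other scalings tried (no loess, the deposited ratio, scaling between arrays). They were led by Nr1d2 at -1.59 ± 0.20, Nampt, the rate-limiting enzyme of NAD salvage, at -0.72 ± 0.12, Ciart at -1.17 ± 0.21 and Nr1d1 at -0.93 ± 0.18. Of 7 ROR element targets, 4 were higher and 1, Arntl, lower, with a median of 0.86, positive under the same scalings. Among them Elovl3 rose by 1.80 ± 0.12, Npas2, a partner of ARNTL, by 0.86 ± 0.12 and the clock repressor Cry1 by 0.99 ± 0.17. Arntl fell by 0.51 ± 0.17, a call that was lost with the arrays of either age alone. It was also lost with median centring, the deposited ratio, the slide or the scan date as a block, and without both arrays that lay between the genotypes. With median centring and no loess 4 E-box and 2 ROR targets were called. The E-box targets had a median amplitude of 0.83 in floxed and 0.28 in Cre livers.

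The families of the members had small median rhythms. Of 20 measured RGS proteins and G alpha subunits besides Rgs16, 4 were lower and 1 higher, a share close to the 24% of all genes, with a median floxed amplitude of 0.074. The G alpha subunits Gnai1 and Gna12 fell by 0.48 ± 0.10 and 0.45 ± 0.11, Rgs12 by 0.39 ± 0.10 and Gna11 by 0.21 ± 0.066, and none of the 20 was called with median centring and no loess. Of 35 ubiquitin-specific proteases besides Usp2, 4 were higher and 6 lower, with a median floxed amplitude of 0.11, and again none was called with median centring and no loess. Usp18, which acts on ISG15, rose by 0.58 ± 0.12 and Usp53 by 0.42 ± 0.12, while Usp21 fell by 0.52 ± 0.13 and Usp10 by 0.28 ± 0.072.

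Of 21 tetraspanins besides Tspan4, 5 were higher and 3 lower, beside 24% of all genes called. Their median difference was 0.0092 and turned to -0.12 with median centring and no loess, to -0.017 with scaling between arrays and to -0.023 with the deposited ratio. Cd9 rose by 1.57 ± 0.16, Tspan33 by 0.54 ± 0.076 and Tspan3 by 0.48 ± 0.066, and Cd37, a leukocyte tetraspanin, fell by 0.40 ± 0.081. Of 12 measured spondins and matricellular genes besides Spon2, 4 were higher and 1, Sparc, lower, beside the same 24%. With median centring and no loess (666 of all genes called), and with the 10-week arrays alone (650), 1 was higher and 0 lower. The Sparc call was also lost with the slide, the scan date or the pairs as a block and with scaling between arrays. Ccn4, a secreted WNT target, rose by 2.13 ± 0.10, against 1.72 for Spon2, with a floxed amplitude of 0.28 against 1.46. Sparcl1 rose by 0.79 ± 0.17, Thbs2 rose by 0.17 ± 0.047 and Sparc fell by 0.40 ± 0.14.

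Of 14 genes of DNA methylation and demethylation besides Dnmt3b, 4 were higher and 1 lower, beside 24% of all genes called. The lower one was the 5-methylcytosine oxidase Tet3, at -0.19 ± 0.065. Their median difference was 0.18 and turned to -0.021 with median centring and no loess, where 1 was called. The 5-methylcytosine oxidases Tet2 and Tet1 rose by 0.39 ± 0.093 and 0.33 ± 0.11, the chromatin remodeller Hells by 0.25 ± 0.064 and the maintenance methyltransferase Dnmt1 by 0.28 ± 0.094. The floxed amplitudes of these 4 higher genes were at most 0.087, against 0.70 for Dnmt3b. With the 10-week arrays alone none of the DNA methylation, RGS or ubiquitin-specific protease genes was called, and 2 of the E-box targets were. Of 20 measured genes of the feeding, fasting and glucocorticoid response, 4 were higher and 5 lower in Cre livers, beside 24% of all genes. With median centring and no loess 1 was higher and 4 lower, and with the 10-week arrays alone 1 and 2. Pdk4, which restrains glucose oxidation, rose by 1.502 ± 0.20, and Cpt1a, Me1 and Mlxipl fell by 0.77 ± 0.11, 0.84 ± 0.14 and 0.62 ± 0.10. Their median amplitude was 0.34 in floxed and 0.31 in Cre livers.

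Markers of other cells are given beside the 24% of all genes called. Higher in Cre livers were 2 of 8 stellate cell markers (Lrat and Lum, by 0.57 ± 0.13 and 0.59 ± 0.15), 2 of 6 cholangiocyte markers (Sox9 and Spp1, by 1.06 ± 0.12 and 1.39 ± 0.18), 1 of 8 macrophage markers and 1 of 7 of sinusoidal endothelium. The mean over the cholangiocyte markers ran from -0.72 to 0 in floxed and from -0.29 to 0.25 in Cre livers, and that over the stellate cell markers from -0.77 to 0.090 and from -0.54 to 0.13. The defining cholangiocyte genes Krt7, Krt19 and Epcam were not called, and Sox9 itself had a floxed amplitude of 0.69. With median centring and no loess the stellate cell, macrophage, endothelium, Hnf4a and Alas2 calls were lost, while the cholangiocyte and Cfd calls held. None of 7 lymphocyte, 3 neutrophil and 2 pancreas markers was called, while the adipose marker Cfd fell by 3.05 ± 0.36, the hepatocyte factor Hnf4a by 0.41 ± 0.077 and the red cell marker Alas2 by 0.56 ± 0.073. The part of these cell types in the differences of the members was not tested.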

How the data were processed

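Scanner output of Agilent Feature Extraction 9.1.3.1 was deposited for each array, with the raw mean intensity and local background intensity per spot in both dyes, per the file headers. The deposited log10 ratio (red, Cy5, to green, Cy3), already background-subtracted and dye-normalised in that software, served as an alternative after conversion to log2. The quality columns deposited beside them (above background, saturated, outlier) are other values used as filters.

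Here the mean signals were background-corrected (normexp, offset 50) and normalised within each array (loess, control and outlier spots at weight 0), outlier spots were removed and spots of a probe were averaged. The filter kept 27824 probes whose Cy3 signal was called well above background in 4 or more arrays and that had values on at least 20, and the brightest probe stood for each of 18955 genes. Probes were named through the transcript accession (24375), the symbol (6301) or an older symbol (2426) in the table of genes, while 8072 kept the file's name.

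One model per gene over all 24 arrays (limma 3.58.1, R 4.3.3, statmod 1.5.0) had for each genotype a mean and a 24 h cosine and sine, and an age term, with added terms for the interaction, the rhythm by age and the 12 h component. Within a test, p-values of all genes were adjusted by Benjamini-Hochberg, and calls had an adjusted p under 0.05. The fit was checked on simulated data.

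The members and the gene lists were chosen with earlier results of these data known, and the ratio, planned as Cy3 over Cy5, was turned once the channels had been compared. Named genes are the members, Arntl, the 5 genes most correlated with each member, and up to 4 called genes of each list with the smallest p, of which 1 is not reported here. Krt7, Krt19, Epcam and Tet3 were named outside this rule after their values were seen. Alternatives covered background correction, normalisation, scaling, filters, slide and scan date as blocks, array weights, shape of the cycle, each age, the other probe of a gene and each array left out. Added after seeing the data were scaling between arrays, the alternatives of the 12 h test, the place of each array between the genotypes, pairs of arrays of the same age and time as a block, and leaving out both Cre arrays that lay between them. Sequences are from RefSeq (promoters, GRCm38.p6) and the scanner files (probes). The array files name no genome build, so no gene positions are given.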

Additional observations from a re-analysis of the deposited data

How the results depend on the processing

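The genotype mean difference of Rgs16, Spon2, Dnmt3b and A630005I04Rik kept its direction and its call under all alternatives run, with ranges of -2.54 to -1.90, 1.43 to 1.92, 0.87 to 1.35 and 0.46 to 1.08. Usp2 (-1.46 to -0.51) lost its call with the 10-week arrays alone (-0.51), and Tspan4 (-0.70 to -0.41) there (-0.41) and with median centring without loess (-0.70). Over all genes 4548 were called for the genotype mean difference, 666 with median centring, 6897 with array weights, 650 at 10 weeks alone, and 3627 to 4947 with 1 array left out, where 6 members were called each time.

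For age 5946 genes were called, 2022 when the slide and 737 when the scan date was a block, and 4951 to 6779 with 1 array left out. Called members numbered 1, 2 with the deposited ratio, 0 with either block and 1 to 2 with 1 array left out. For the interaction 2022 genes were called, 8449 with median centring, 1221 with the deposited ratio, 35 with scaling between arrays, 813 with slide and 147 with scan date blocks, 5961 with array weights, 3741 with the pairs of the same age and time as a block, 355 without both Cre arrays that lay between the genotypes, and 975 to 4338 with 1 array left out. Arrays that moved this count by over 1.5 times were the floxed ones of ZT4 and ZT12 at 10 weeks and ZT8 at 20 weeks, and the Cre ones of ZT8, ZT16 and ZT20 at 10 weeks and ZT0, ZT12, ZT16 and ZT20 at 20 weeks. Called members numbered 0, 3 with median centring, and 1, Usp2, with array weights and with the pairs as a block. Rhythm by age called 0 genes, and 259 without the 20-week floxed array of ZT20. The 12 h test called 1 gene, 0 with median centring, the deposited ratio, scaling or array weights, 2 with the scan date, and 0 to 1 with 1 array left out.

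Values that passed no test turned sign as follows. Median centring gave age differences of 0.21 for Tspan4 and 0.30 for Spon2, and interactions of -0.84 for Spon2 and -0.12 for A630005I04Rik. The deposited ratio gave age differences of -0.094 for Dnmt3b and -0.17 for A630005I04Rik. Scaling between arrays gave -0.065 and -0.073 for these, and interactions of 1.19 for Rgs16, 0.15 for Tspan4, -0.29 for Spon2 and -0.029 for A630005I04Rik. The age difference of A630005I04Rik was -0.027 without background correction and -0.00050 with array weights, and that of Usp2 was -0.058 on its dimmer probe. With 1 array left out, the Spon2 interaction ran from -0.052 to 0.21 and the A630005I04Rik age difference from -0.0056 to 0.050. The cause of these changes was not tested. Floxed amplitudes moved by over the residual spread for Dnmt3b (1.03) and A630005I04Rik (1.56) with the deposited ratio, Spon2 with scaling (1.17), and Usp2 (0.998) and Spon2 (0.988) on their dimmer probes.

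Scaling by Aquantile leaves the ratios as they are. The labels give no replicate numbers, so the only pairing is by age and time. With these 12 pairs as a block, chosen after seeing the data, 4995 genes and 6 members were called for the genotype mean difference. No array repeats another of the same group, age and time, so error at a single time cannot be separated from the difference between ages.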
